A study of Mus musculus with 6 samples.

Results

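The transcripts of 7 matrix metalloproteinases (Mmp2, Mmp3, Mmp9, Mmp10, Mmp11, Mmp13 and Mmp14) and 3 of their tissue inhibitors (Timp1, Timp2 and Timp3) were compared between Gpx4 knockout and control pools of primary mouse keratinocytes. They were chosen by gene symbol, as every probe set of the array annotated with 1 of these symbols and no other gene. This gave 22 of the 45037 probe sets tested, for 10 of 18193 named genes, with 11 probe sets for the metalloproteinases and 11 for the inhibitors.

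Keratinocytes were cultured from the skin of newborn mice of the genetic background given as C57BL6/FVB. In the Gpx4 KO pools the gene for glutathione peroxidase 4, the enzyme that turns lipid hydroperoxides into harmless alcohols, had been deleted with K14-cre, a recombinase that the keratin 14 promoter switches on in basal keratinocytes. The controls came from the same litters, and the labels give them as "control" without naming their alleles or whether they carried the cre. Each of the 3 litters, A, B and C, gave 1 control pool and 1 knockout pool of cells, so there were 3 control and 3 knockout arrays. All cells were prepared and grown in media with 100 nM sodium selenite. Each array is a pool, so differences between animals of a litter were not measured.

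Matrix metalloproteinases are zinc-dependent enzymes, secreted or anchored in the cell membrane, that cut collagens, laminins, other matrix proteins and many cell surface and signalling proteins. They are made as inactive precursors, and the tissue inhibitors of metalloproteinases (TIMPs) bind and block the active enzymes. In skin, keratinocytes at a wound edge switch on several of them while they migrate, and dermal fibroblasts make others. Their transcription, their activation and their inhibition are each controlled, and these arrays measured only the messenger RNA.

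Levels below are intensities after quantile normalization, given per array in the order of litters A, B and C and as mean ± SD over 3 arrays. Log2 changes are knockout minus control ± SE on log2(intensity + 16), which shrinks the change of dim probe sets, and come from a limma fit that blocked on litter. Adjusted p are Benjamini-Hochberg values over all 45037 probe sets, with a threshold of 0.05. A probe set with a mean under 32 in both groups is called dim and is given by its levels alone. Where a gene had more than 1 probe set, it was represented by the brightest, judged on all 6 arrays together.

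The targeted gene was lower in all 3 knockout arrays. The brighter Gpx4 probe set read 497, 551 and 536 in the controls and 212, 259.7 and 216 in the knockouts (log2 change -1.15 ± 0.091, limma adjusted p = 0.0206). The other read 337, 324 and 486 in the controls and 107, 185 and 117 in the knockouts. Its change of -1.40 ± 0.21 did not pass (adjusted p = 0.063). Signal thus remained in the knockouts on both probe sets. The 4 sex-linked genes measured also passed, 1 higher and 3 lower in the knockout of all 3 litters. The sex makeup of the pools therefore differed along with the genotype in every comparison below. The keratin genes of basal cells, Krt5 and Krt14, were well above the dim limit in every array, with mean levels of 6873 and 6522 in controls and 6741 and 6679.9 in knockouts. The control array of litter C stood apart. Its trimmed mean before normalization was 1.56-fold that of the litter C knockout, against 0.985-fold and 0.973-fold in litters A and B. After normalization it was the lowest control for 7 of the 10 members (40.2% of all named genes) and the highest for Timp1 and Mmp3. Results are therefore also given from litters A and B alone.

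The regulatory sequence of Mmp13, Mmp3 and Mmp10 is shown first because these 3 genes lie in 1 cluster on chromosome 9 and share a site for AP-1, the transcription factor whose activity is known to drive their expression in keratinocytes. In the RefSeq gene order Mmp12 and Mmp1b lie between Mmp13 and Mmp3, and Mmp1a lies between Mmp3 and Mmp10. Of the 10 members 8 had an entry among the RefSeq promoter sequences of build GRCm38.p6. The 250 bases before the start of each were searched on both strands for TGANTCA, the AP-1 site, and for TATAAA, the TATA box, which do not overlap each other. The windows below are the 100 bases before the annotated start, 5′ to 3′ on the strand of the gene, with both motifs in capitals. Timp1 and Timp2 are set beside them as the inhibitors with the smallest p.

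Mmp13, chr9:7272414-7272513, plus strand: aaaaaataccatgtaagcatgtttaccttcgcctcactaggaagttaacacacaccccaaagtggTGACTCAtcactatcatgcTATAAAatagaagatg
Mmp3, chr9:7445722-7445821, plus strand: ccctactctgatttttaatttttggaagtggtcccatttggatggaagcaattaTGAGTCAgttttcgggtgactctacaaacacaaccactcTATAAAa
Mmp10, chr9:7502242-7502341, plus strand: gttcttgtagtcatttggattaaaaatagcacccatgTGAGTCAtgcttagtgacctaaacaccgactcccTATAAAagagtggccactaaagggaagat
Timp1, chrX:20870066-20870165, plus strand: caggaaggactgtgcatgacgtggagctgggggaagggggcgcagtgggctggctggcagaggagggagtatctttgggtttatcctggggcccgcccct
Timp2, chr11:118355412-118355511, minus strand: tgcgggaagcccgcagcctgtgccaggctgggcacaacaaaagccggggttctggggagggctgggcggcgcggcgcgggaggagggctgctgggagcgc

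The letters of the AP-1 site began 35, 46 and 63 bases before the annotated start in Mmp13, Mmp3 and Mmp10, and TATAAA 16, 7 and 29 bases before it. Whether transcription begins at the annotated start in these cells was not tested, so the distances hold for the annotation alone. Of 32851 promoter sequences 6.75% held TGANTCA in this window, 12.4% held TATAAA and 1.21% held both. These letters were not found in the windows of Mmp11, Mmp14, Timp1, Timp2 and Timp3. The G and C share of the 250 bases was 40.4%, 37.6% and 37.2% in Mmp13, Mmp3 and Mmp10, 54.4% in Timp1 and 68% in Timp2, against a median of 52.4% over all promoters. A match describes the letters and is no measure of binding.

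No member passed the threshold with all 3 litters. By limma 0 of the 10 genes had an adjusted p under 0.05, against 0.616% of all named genes, and the smallest adjusted p of the 22 probe sets was 0.0665. At an unadjusted p under 0.05 there were 7 genes, 3 higher and 4 lower in the knockout, where 18.1% of all named genes reached it. Of the 7 members that are not dim 5 reached it, against 27.1% of such genes, and of the 22 probe sets 14 did, against 14.6% of all probe sets. Probe sets of 1 gene read the same transcript and are not separate. The members were also chosen with earlier results of these data known. The levels of the groups did not overlap for 7 genes, with the knockout above for Timp1, Timp3, Mmp13 and Mmp10 and below for Timp2, Mmp14 and Mmp11. Over all named genes the knockout was apart and above for 9.81% and below for 10.8%, 20.6% in all, and for 28% of those that are not dim. Mmp10 and Mmp11 are dim, so the last share is to be set beside Timp1, Timp3, Mmp13, Timp2 and Mmp14 alone. Each of these members and Mmp2 also differed in 1 direction in all 3 litters, 4 higher (19.3% of all named genes) and 4 lower (20.1%). From litters A and B alone 2 member genes passed, Timp2 and Mmp14, both lower, where 8.4% of all named genes passed, 4.34% lower and 4.07% higher. With litter A left out, and with litter B left out, no member probe set passed, where 3 and 0 of all probe sets did. The normalization bears on the count of members without overlap. With the intensities scaled as deposited 4 members did not overlap, Mmp10 above and Timp2, Mmp14 and Mmp11 below. With median scaling 5 did not, these and Mmp13, which was above. Timp1 and Timp3 overlapped under both. The median log2 change of the 10 genes was -0.015, beside 0.00039 for all named genes, with 5 genes above 0 and 5 below.

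**Figure D1:**
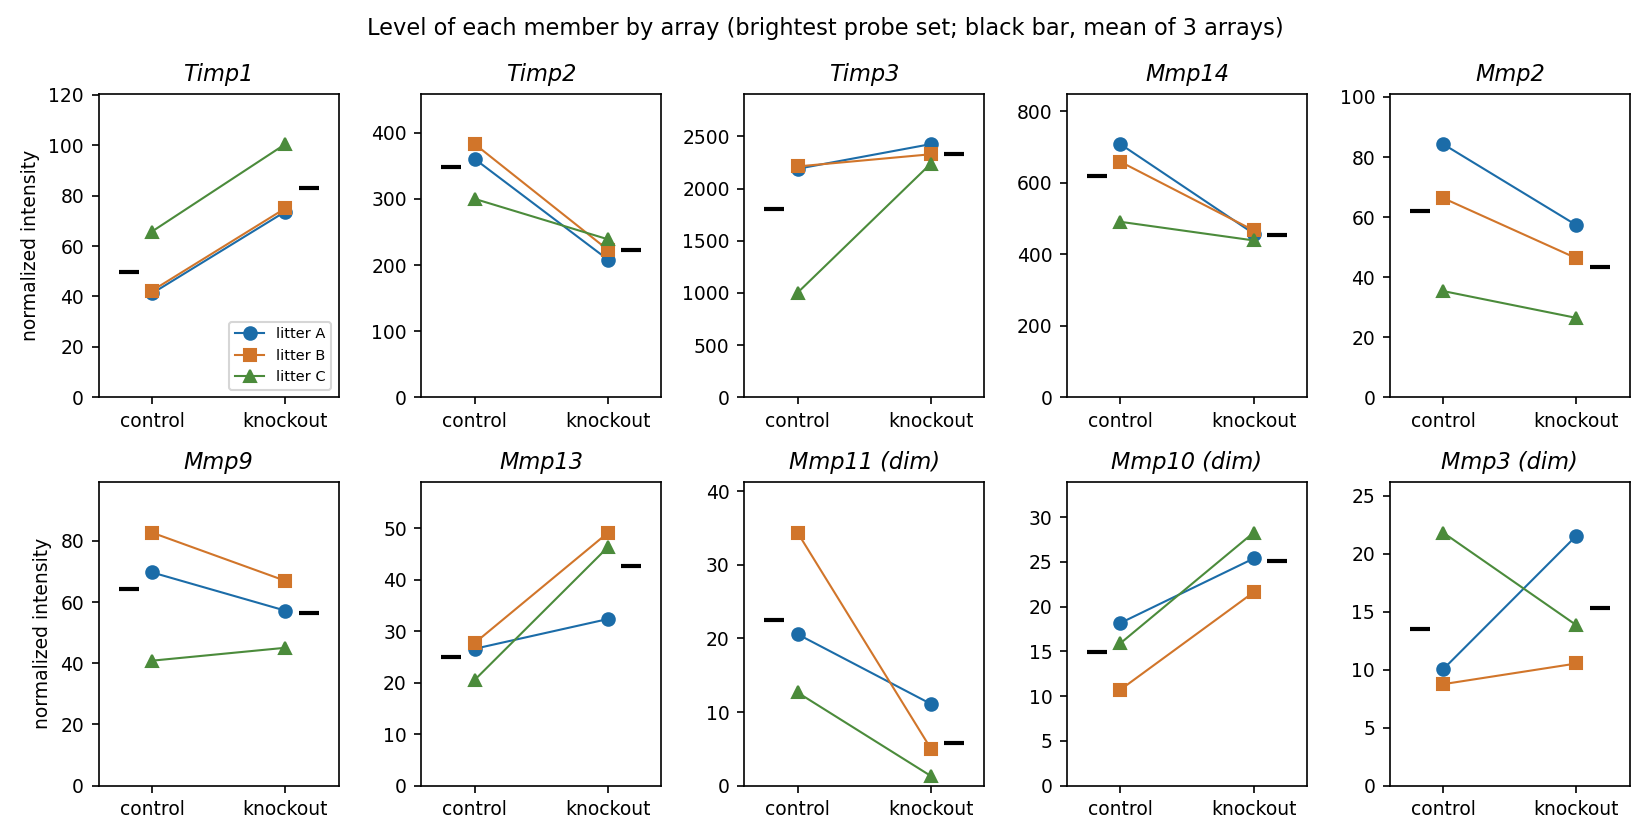
Quantile-normalized intensity of each member's brightest probe set in control and knockout arrays, on linear axes from 0, with a line joining the 2 arrays of a litter and a black bar at the mean of 3 arrays. Timp2 and Mmp14 read lower and Timp1 and Mmp13 higher in the knockout of all 3 litters, and the control of litter C is the low point for Timp3.

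Among the inhibitors, Timp2 was lower in the knockout of every litter. TIMP2 blocks most metalloproteinases, and on the cell surface it also links the precursor of MMP2 to MMP14, so that it takes part in activating MMP2 as well as in inhibiting it. Its brightest probe set read 360.4, 383 and 300.05 in the controls and 208, 223 and 239 in the knockouts. All 3 control arrays were above all 3 knockout arrays. The means were 348 ± 42.9 and 223 ± 15.4, and the log2 change was -0.60 ± 0.12 (95% interval -0.89 to -0.31, limma adjusted p = 0.101).

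Timp2 was measured by 6 probe sets, of which 1 was dim, with levels of 0.467 to 9.02. The other 5 were each lower in the knockout of all 3 litters, with log2 changes between -0.94 and -0.54 and adjusted p between 0.0665 and 0.188. The largest difference was on 1450040_at, which read 116, 123 and 78.1 in the controls and 48.2, 48.1 and 43.6 in the knockouts. Here too the groups were apart, and the knockout arrays lay closer together than the controls. Its log2 change was -0.94 ± 0.14 (95% interval -1.29 to -0.59), and litter A gave -1.04, litter B -1.12 and litter C -0.66. This probe set passed with median scaling (-1.04, adjusted p = 0.00975), with a pseudocount of 1 (-1.14, adjusted p = 0.0317) and without the 40% dimmest probe sets (adjusted p = 0.0178). It did not pass as deposited (adjusted p = 0.126), with a pseudocount of 64 (0.0912), without the block (0.0756), without the intensity trend (0.118), or without litter A (0.376) or litter B (0.527). The levels did not overlap on 4 of these 5 probe sets. On the fifth, 1454677_at, the control of litter C at 110.2 lay under the knockout of litter A at 129. The probe sets read 1 transcript from the same 6 samples, so their agreement is not separate evidence.

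Litter C gave the smallest Timp2 difference on each of the 5 probe sets that are not dim. From litters A and B alone the brightest probe set had a log2 change of -0.74 ± 0.088 (limma adjusted p = 0.00705), and 4 of the 6 probe sets passed, where 5.92% of all probe sets did. Without litter A the brightest probe set gave -0.53 (adjusted p = 0.458) and without litter B -0.53 (0.561). Without the litter block the adjusted p of the brightest probe set was 0.0861, and with the intensities scaled as deposited the log2 change was -0.79 (adjusted p = 0.285). Among genes with a probe set above a mean level of 64, the 4 whose 6 log2 values were most like those of 1450040_at were Rnf167, Rb1cc1, Myl9 and Dst, with Pearson r from 0.997 to 0.999 over 6 arrays. Of these Myl9, a myosin light chain of contractile cells such as smooth muscle, fell (log2 change -1.22 ± 0.13, limma adjusted p = 0.034), and the others did not pass. These arrays share their groups, litters and normalization, and the r is given as a description of likeness.

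Timp1 differed in the opposite direction. TIMP1 is a secreted inhibitor that growth factors and cytokines induce, and it inhibits MMP14 poorly. Its 1 probe set read 41.2, 42.3 and 65.8 in the controls and 73.7, 75 and 100.5 in the knockouts. Each knockout was above its own control, and the lowest knockout was above the highest control. The means were 49.7 ± 13.9 and 83 ± 15.1, and the log2 change of 0.60 ± 0.13 did not pass (95% interval 0.29 to 0.91, limma adjusted p = 0.115). The litters gave 0.65, 0.64 and 0.51. With the intensities scaled as deposited the change was 0.40 and the groups overlapped. They also overlapped with median scaling, where the change was 0.46 (limma adjusted p = 0.372). Without the litter block the adjusted p was 0.228. Timp1 lies on the X chromosome, and the pools differed in sex-linked transcripts. Xist, the RNA of the inactive X, read 389 to 536 in controls and 1214 to 1259.8 in knockouts, and the Y-linked Eif2s3y read 155 to 185 in controls and 0.667 to 4.62 in knockouts. The sex makeup of the pools and the genotype cannot be told apart in these arrays, for Timp1 or for any other member or marker.

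Timp3 read higher in the knockout mainly through litter C. TIMP3 is held in the extracellular matrix and also inhibits ADAM17, the protease that sheds TNF and EGF receptor ligands. Its brightest probe set read 2189, 2212 and 1001 in the controls and 2426, 2329 and 2239 in the knockouts. The control of litter C was below the 5 other arrays, which lay between 2189 and 2426. The log2 change was 0.46 ± 0.21 (95% interval -0.04 to 0.95, limma adjusted p = 0.374), and litter C gave 1.15, against 0.15 in litter A and 0.07 in litter B. From litters A and B alone it was 0.12 ± 0.072 (95% interval -0.05 to 0.29, adjusted p = 0.44).

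The other 3 Timp3 probe sets showed the same low control array, at 974, 394 and 310.4 on 1419089_at, 1419088_at and 1449334_at. Their log2 changes were 0.36 ± 0.24, 0.66 ± 0.21 and 0.68 ± 0.18, with adjusted p between 0.164 and 0.551. From litters A and B alone they were -0.047, 0.31 and 0.39, and the last of these passed (adjusted p = 0.0385). The 4 probe sets of Timp3 thus differ over litters A and B in size and, for 1, in sign. In these litters the 2 brighter ones gave between -0.10 and 0.15 and the 2 dimmer ones between 0.25 and 0.45.

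**Figure D2:**
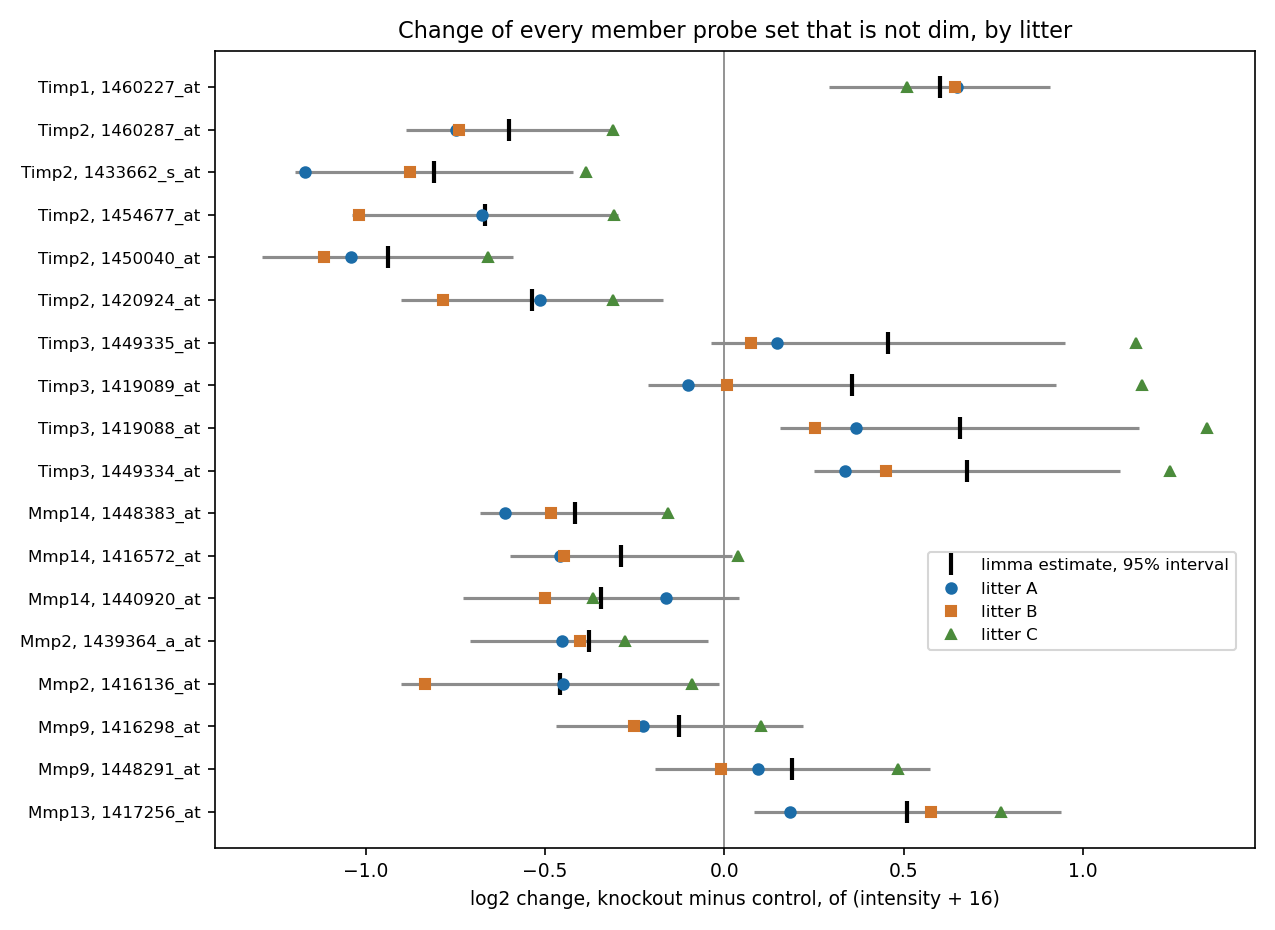
Log2 change, knockout minus control, of the 18 member probe sets that are not dim, with the limma estimate as a black tick, its 95% interval as a grey line and the 3 litters as coloured symbols. The 5 Timp2 probe sets lie left of 0 in every litter, and the litter C symbols of the 4 Timp3 probe sets lie between 1.15 and 1.35, to the right of the other litters.

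Of the metalloproteinases that are not dim, Mmp14 was lower in the knockout without overlap of the groups. MMP14 is a membrane-anchored enzyme that cuts collagen around the cell and activates MMP2 at the cell surface. Its brightest probe set read 708, 658 and 490.5 in the controls and 458, 466 and 438 in the knockouts. The knockouts lay within a narrow range, under every control. The means were 619 ± 114 and 454 ± 14.4, with a log2 change of -0.42 ± 0.11 (95% interval -0.68 to -0.15, limma adjusted p = 0.166). The litters gave -0.61, -0.48 and -0.16. From litters A and B alone the change was -0.55 ± 0.082 and passed (adjusted p = 0.0146). Without litter A it was -0.32 (adjusted p = 0.575) and without litter B -0.39 (0.618), and neither passed. The probe set 1416572_at gave -0.46, -0.45 and 0.04 and 1440920_at gave -0.16, -0.50 and -0.37 in the litters, with overlapping groups, and from litters A and B the first of them passed (adjusted p = 0.0376).

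Mmp2, the gelatinase that MMP14 and TIMP2 together activate, was also lower in each litter, with overlapping groups. Its brightest probe set read 84.3, 66.3 and 35.4 in the controls and 57.3, 46.3 and 26.4 in the knockouts. The litters differed more from each other than the genotypes did, and the control of litter C lay under the knockouts of A and B. The log2 change was -0.38 ± 0.14 (95% interval -0.71 to -0.05, limma adjusted p = 0.285), with -0.45, -0.40 and -0.28 in the litters. The other probe set gave -0.46 ± 0.18 (adjusted p = 0.327), with -0.45, -0.83 and -0.09 in the litters, and -0.27 without litter B. Without the litter block the SE of the brightest probe set was 0.29, against 0.14 with it.

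Mmp9, the gelatinase of migrating keratinocytes and leukocytes, gave no steady difference. The brighter probe set read 69.7, 82.7 and 40.8 in the controls and 57.2, 66.9 and 45.05 in the knockouts. It was lower in the knockout of litters A and B and higher in that of litter C. The log2 change was -0.12 ± 0.14 (95% interval -0.47 to 0.22, limma adjusted p = 0.75), and the other probe set gave 0.19 ± 0.16 (-0.19 to 0.57, adjusted p = 0.645). Its 2 probe sets thus had opposite signs, their mean gave 0.032, and the intervals leave room for differences either way.

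The 3 genes of the chromosome 9 cluster had low levels, close to the dim limit of 32 for Mmp13 and under it for Mmp10 and Mmp3. Mmp13, the interstitial collagenase of mouse skin, read 26.6, 27.7 and 20.6 in the controls and 32.4, 49.2 and 46.4 in the knockouts. All knockouts were above all controls. The log2 change was 0.51 ± 0.18 (95% interval 0.08 to 0.94, limma adjusted p = 0.267), with 0.18, 0.58 and 0.77 in the litters.

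Mmp10, a stromelysin made by keratinocytes at wound edges, was dim, with 18.2, 10.7 and 15.9 in the controls and 25.4, 21.6 and 28.3 in the knockouts (limma adjusted p = 0.307). The knockouts were again all higher, at levels where much of the array lies. Mmp3, the stromelysin made mainly by fibroblasts in skin, was dim as well, with 10.03, 8.75 and 21.8 in the controls and 21.6, 10.5 and 13.8 in the knockouts (adjusted p = 0.88). Its groups overlapped and litter C ran against the other litters. From litters A and B alone none of these 3 genes passed, with adjusted p between 0.364 and 0.467.

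Mmp11 is a stromelysin known from stroma around tumours and in remodelling tissue, which furin activates before secretion. It was dim, with 20.6, 34.4 and 12.65 in the controls and 11.1, 5.03 and 1.32 in the knockouts (limma adjusted p = 0.146). Each knockout was below its own control and below all controls. Before normalization 45.4% to 50.1% of each array read under 16, and a level in this range gives no measure of how much transcript was left.

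**Figure D3:**
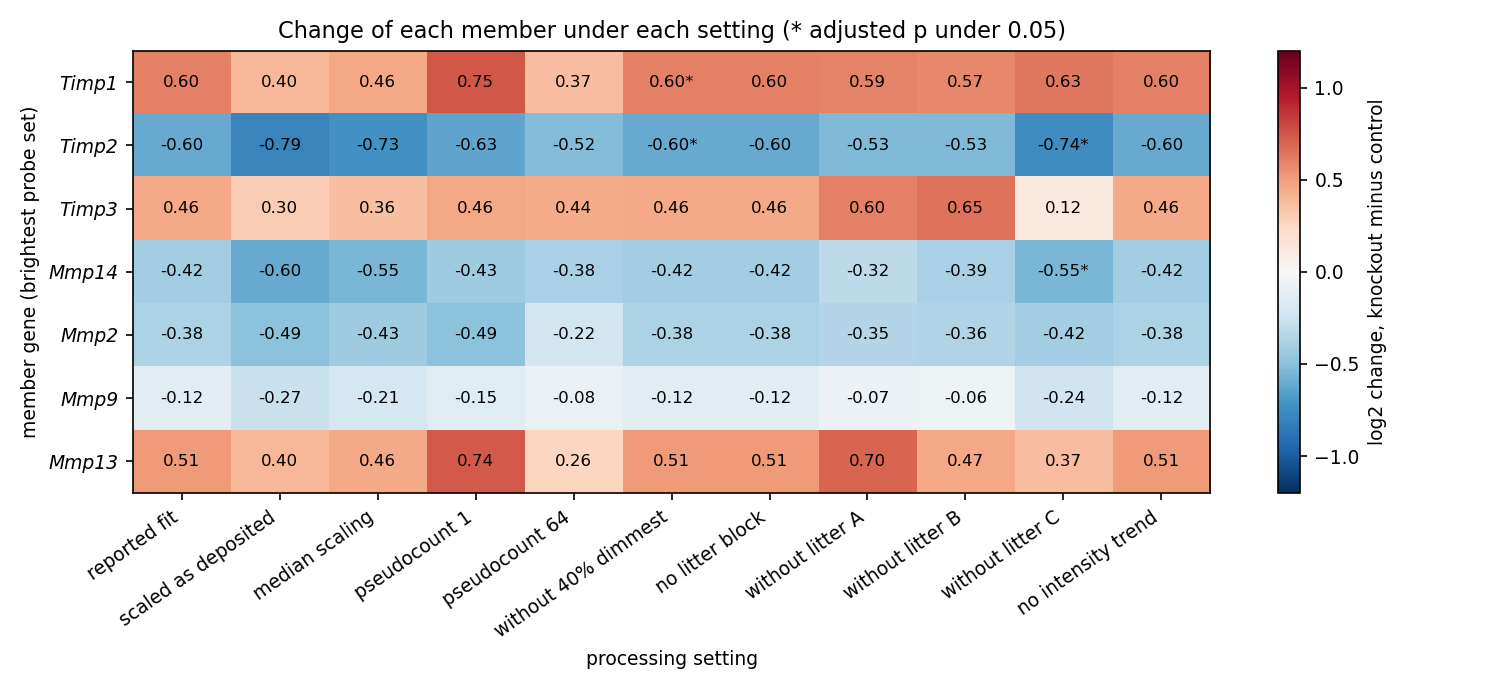
Log2 change, knockout minus control, of the 7 members that are not dim, under the reported fit and 10 other settings, coloured from blue (lower) to red (higher), with an asterisk where the adjusted p was under 0.05. Each gene's brightest probe set keeps its sign across these settings, and the asterisks stand at Timp1 and Timp2 without the 40% dimmest probe sets and at Timp2 and Mmp14 without litter C.

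The wider set of metalloproteinases and genes that control them was read from a list of 45 genes, of which 39 were on the array with a probe set of their own and 28 were dim. By limma 1 of the 39 passed, higher in the knockout, and none passed as lower, with 5 higher and 6 lower at an unadjusted p under 0.05. Of all named genes 0.616% passed and 18.1% had an unadjusted p under 0.05, in either direction. The gene that passed was Thbs1, thrombospondin, a matrix glycoprotein that binds metalloproteinases and promotes their uptake. It read 744, 598 and 505 in the controls and 1292, 1202 and 1013 in the knockouts (log2 change 0.92 ± 0.083, adjusted p = 0.0249). All knockouts were above all controls. No gene of the list passed as higher with the intensities scaled as deposited, with median scaling, without the intensity trend, or without litter A or litter B. The median log2 change of the 39 genes was -0.02.

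A few further genes of that list were picked out after their values were seen. Adam8 and Adam9, membrane-bound sheddases, had log2 changes of 0.64 ± 0.088 and 0.63 ± 0.092 and just missed the threshold (limma adjusted p = 0.0514 and 0.0582). Adam17, the target of TIMP3, had -0.41 ± 0.12 (adjusted p = 0.2). Lrp1, the endocytic receptor that clears thrombospondin and metalloproteinase complexes, had -0.71 ± 0.15 (adjusted p = 0.115). Furin, which activates MMP11 and MMP14, had -0.03 ± 0.12, with a 95% interval of -0.32 to 0.25. The remaining metalloproteinases of the list, from Mmp1a to Mmp24, were all dim, as was Timp4.

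Several members are expressed by other cells of the skin, so marker genes of those cells were read from the same arrays. In bulk RNA, fewer cells of a type and less RNA per cell cannot be told apart. The summed level of 19 fibroblast markers was 1705.9, 1635 and 3016 in the controls and 2650.3, 2889.9 and 3520.4 in the knockouts. The control of litter C thus lay within the range of the knockouts. The median log2 change of this list was 0.42 (0.57, 0.96 and 0.12 in the litters), and Sparc passed, higher in the knockout (0.80 ± 0.11, limma adjusted p = 0.0485). The other bright markers split, with 1.58 ± 0.25 for Vim and -0.61 ± 0.087 for Fn1, neither of which passed (adjusted p = 0.0682 and 0.0552). Of the 19 markers 5 were dim, the matrix genes Dcn, Lum and Dpt and the transcription factors Twist1 and Twist2.

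The 8 melanocyte markers summed to between 4597 and 4767 in controls and between 6397 and 7000.2 in knockouts, and Tyrp1 and Mlana passed as higher (log2 change 0.69 ± 0.078 and 1.11 ± 0.13, limma adjusted p = 0.038 and 0.0429). Dct and Pmel, the other bright melanocyte markers, had 0.46 and 0.47 and did not pass. The 7 smooth muscle and pericyte markers summed to 3486, 3517 and 2346 in controls and 2753, 2807 and 3029 in knockouts. Their median log2 change was -0.14 (-0.36, -0.39 and -0.12 in the litters), so the sum and the median differ in sign in litter C. Of the 7 markers 4 were dim, and the list was split, with 2 higher and 3 lower in all 3 litters. Of these Cspg4 passed as lower (-1.80 ± 0.23, adjusted p = 0.0452), and Acta2 and Tagln did not pass. The 9 leukocyte markers summed to between 130.1 and 162 in controls and between 159 and 200.3 in knockouts, with Lyz2, Cd68 and Csf1r at levels of 32 to 35. The 6 endothelial markers, Kdr, Cdh5 and Tek the brightest of them, were all dim.

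The 11 measured keratinocyte markers summed to between 31227 and 33900 in controls and between 30759 and 31958 in knockouts. Among them Krt10, a keratin of differentiating cells, fell (-1.42 ± 0.084, limma adjusted p = 0.00922), while Krt5, Krt14 and Perp did not pass. The median log2 changes of the fibroblast, melanocyte and leukocyte lists were above 0 in each litter, and 6 of the 9 leukocyte markers were dim. By their brightest probe sets Timp1, Timp3, Mmp13 and Mmp10 were also above 0 in each litter. The keratinocyte median was -0.13, -0.16 and 0.04 in the litters. The median of the smooth muscle and pericyte list was below 0 in each litter, though its sum was higher in the knockout of litter C. That list was mostly dim and its markers went both ways, so its median describes no common decrease. By their brightest probe sets Timp2, Mmp14, Mmp2 and Mmp11 were below 0 in each litter, opposite in sign to the fibroblast, melanocyte and leukocyte medians. These signs were set side by side with the values known. The part of these cell types in the level of any member was not tested.

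**Figure D4:**
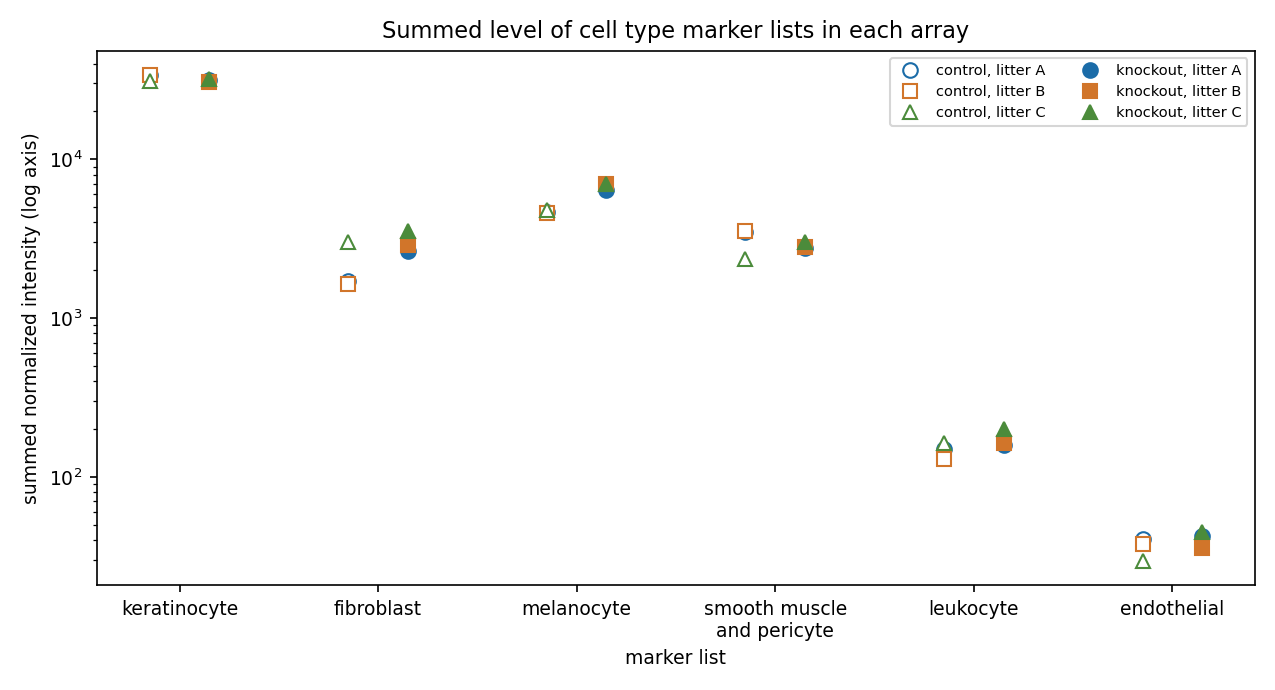
Summed quantile-normalized intensity, on a log axis, of 6 marker lists in each array, with open symbols for controls, filled symbols for knockouts and a shape and colour for each litter. The fibroblast sum of the litter C control, 3016, lies above the other controls, and the melanocyte sums of the knockouts lie above those of the controls.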

How the data were processed

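Total RNA from 1 pool of keratinocytes per genotype and litter was extracted with Trizol and biotin-labelled with an in vitro transcription kit, per the labels' protocols. Each of the 6 arrays, of 1 colour, has a column of linear intensity values in the deposited table. The background correction, summarisation and scaling by the authors are not given in the sources used here. After 64 control probe sets were left out, 45037 remained: 34945 with 1 gene symbol in the platform annotation of 2016, 932 with several and 9160 not listed.

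Quantile normalization was followed by a two-sided limma fit (version 3.58.1, R 4.3.3; lmFit, then eBayes with a trend on intensity) of log2(intensity + 16), in which litter was a block. The labels name each array's litter, and the arrays were paired on this. Deviations from the group means correlated only weakly within each litter (A 0.175, B 0.0474, C 0.207). They were not compared between litters, so they do not show the pairing. The number of arrays limits the precision. P-values rest on the spread of the knockout minus control differences across the 3 litters, which eBayes moderates over all probe sets. Where a litter was left out, the remaining arrays were normalized anew. The fit was tested on simulated arrays, in 5 simulations with 200 changed probe sets each, all drawn from those above the median level. At the threshold it found 11.8% of the 2-fold and 55.8% of the 4-fold changes. These shares hold for that setting. They may differ in the real arrays, where 14.6% of probe sets had an unadjusted limma p under 0.05. As many true changes can be missed, a member that did not pass is not shown to be unchanged. Named by rule were all members, Gpx4, passing genes of the protease list, the 3 brightest markers per list and passing keratinocyte and fibroblast markers. The rule also named the 4 genes most like the member with the smallest p. Other genes of these lists, among them Adam8, Adam9, Adam17, Lrp1 and Furin, were named outside it. The members, lists and settings were chosen with earlier results of these data known, and the sex-linked genes and TATAAA were added after these were seen. Promoter sequences are RefSeq's.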

Additional observations from a re-analysis of the deposited data

How the results depend on the processing

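With all 3 litters the count of member genes that passed stayed at 0 under 6 other settings. The signs of the 7 members that are not dim held for their brightest probe sets under 10 settings, and with the mean of a gene's probe sets Mmp9 turned from -0.12 to 0.032. With each array scaled to the same median 1 member passed as lower (the dim Mmp11), and without the 40% dimmest probe sets 1 passed as higher (Timp1) and 1 as lower (Timp2), where fewer probe sets share the adjustment. Over all probe sets 71 passed as higher and 118 as lower, against 3 and 32 as deposited, 198 and 512 with median scaling, 271 and 330 with a pseudocount of 1, 27 and 32 with 64, 521 and 609 without the dimmest 40%, and 0 and 6 without the intensity trend. With no replicate block 75 were lower, and no member's call changed. With a litter left out the counts ran from 0 to 1306 higher and from 0 to 1360 lower, both lowest without litter B and highest without litter C, and passing members from 0 to 2 lower (Timp2 and Mmp14 without litter C). The protease list went from 1 gene higher to 0 as deposited, with median scaling and without the trend, and to 3 with a pseudocount of 1. The list had 3 higher and 1 lower without the dimmest 40%, and 0 to 4 higher and 0 to 1 lower with a litter left out. The median of the 10 members was -0.12 as deposited, -0.064 with median scaling, 0.035 with a pseudocount of 1, 0.064 with the mean of a gene's probe sets, and -0.10 to 0.015 with a litter left out. With a litter left out, the dim Mmp3 ranged from -0.13 to 0.31 and the Timp3 probe set 1419089_at from -0.047 to 0.58, negative without litter A and without litter C respectively. The cause of these shifts was not tested. Dim levels limit what can be said of Mmp3, Mmp10 and Mmp11.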
